A study of Mus musculus with 12 samples.

Results

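RNA from 6 orthotopic 4T1 tumors was compared, 3 from mice given BF10 and 3 from mice given an antibody (aCSF1R) to CSF1R, the receptor of colony stimulating factor 1, out of 12 tumors sequenced in all. The 6 libraries were taken by their column names, BF10 replicates 3, 6 and 7 and aCSF1R replicates 4, 6 and 8, and the comparison ran across every expressed gene. 4T1 is a mouse mammary carcinoma line, implanted here in Balb/c mice with treatment from a tumor volume of 100 mm3. The aCSF1R arm is the clone AFS98 antibody. BF10 is that antibody with interleukin-10 (IL-10) joined to it, per the study's methods human IL-10 on the C-terminus of a mouse IgG2a format through a linker. The comparison therefore asks what differs in the whole tumor when IL-10 is attached to the antibody. Control IgG (an isotype IgG1-Fc) and IL-10-Fc (IL-10 on an Fc part without the CSF1R arm), 3 tumors each, serve as the background levels. The labels give 6 doses and the series description and methods give fewer, so the number of doses is uncertain. All 4 groups share the host strain, the tumor line and the implantation site, no tumor was sorted, and each library is 1 bulk tumor.

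CSF1R is the receptor tyrosine kinase that most tissue and tumor macrophages depend on for survival and differentiation, and its ligands are CSF1 and IL-34. Antibodies that block it deplete macrophages in many mouse tumors and leave other leukocytes less affected. IL-10 signals through IL10RA and IL10RB to STAT3, restrains the inflammatory output of macrophages and can act on CD8+ T cells and mast cells. In bulk RNA, fewer cells of a type and less RNA per cell cannot be told apart, and this holds for every result given here.

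Values are TPM, that is, the deposited FPKM of each library brought to the same total of 1000000, and differences are BF10 minus aCSF1R on log2(TPM + 1), which understates the change of genes with low values. The depth of the 6 libraries, estimated from the steps between low values of short genes, was 0.923 to 1.07 of the median library, and 23012 to 25299 genes had a value above 0. BF10 replicate 6 and aCSF1R replicate 8 had higher FPKM sums (829206 and 921581) than the other 4 libraries (609695 to 644073), with more mitochondrial (6.77% and 8.66%, against 3.14% to 3.70%) and ribosomal protein RNA (21.8% and 25.3%, against 13.04% to 14.9%). BF10 and aCSF1R thus each hold 1 higher-sum and 2 lower-sum libraries. The other groups are not matched in this. Control IgG replicates 4 and 7 were higher-sum (891627 and 901921), as was IL-10-Fc replicate 7 (782919). Pearson's r across genes was 0.876 to 0.981 over the 6 pairs within a group and 0.847 to 0.970 over the 9 pairs between them.

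Genes that mark macrophages, from the C1q chains to Fc receptors, were higher in BF10 tumors, and no gene fell past the threshold. A gene counted as changed at a limma adjusted p below 0.05 with a difference of at least 1.5-fold. By that rule 114 of 15504 genes were higher in BF10 (0.735%) and 0 were lower (0%). At an unadjusted p below 0.05 there were 574 higher and 87 lower genes, 661 in all (4.26%). The 3 BF10 values all lay above the 3 aCSF1R values in 671 genes (4.33%) and all below them in 245 (1.58%). A difference above 0 was found in 58.2% of all tested genes, and the median over all of them was 0.06 with a median SE of 0.43. The 114 genes had differences of 1.15 to 4.36 (median 2.43), 81 were at least 4-fold and 21 at least 8-fold apart, and in each of the 114 the groups did not overlap.

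**Figure D1:**
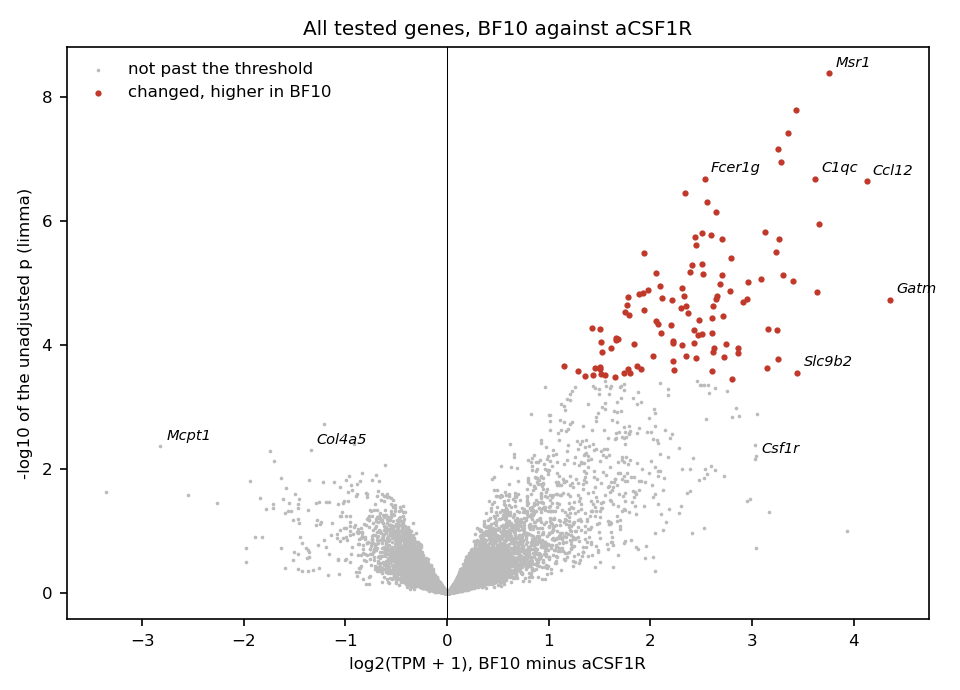
Difference between BF10 and aCSF1R on log2(TPM + 1) (x axis) against -log10 of the unadjusted limma p (y axis) for the 15504 tested genes. The 114 changed genes (red) all lie on the BF10 side, from 1.15 to 4.36, and 0 lie on the aCSF1R side.

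The count came from a fit to all 12 libraries, which share 1 estimate of the spread. Fitted to the 6 libraries alone, with 4 residual degrees of freedom, limma called 0 genes (lowest adjusted p 0.0644), with 446 at an unadjusted p below 0.05, and all 114 genes were among those 446. Without BF10 replicate 3 the count was 54, without aCSF1R replicate 6 it was 61 and without BF10 replicate 7 it was 72. With a term for the library set (higher-sum or lower-sum) it was 437, of which 429 were higher in BF10. Of the 75 called genes chosen for naming, 24 kept their call in every alternative fit other than that on 6 libraries, among them Gatm, Ccl12, Msr1, Lyz2, Aif1, Fcgr1, Lair1, Ocstamp and the 3 C1q chains, and 0 changed sign. Scaled by the median of ratios in place of the sum, 138 genes were called, of which 61 were among the 114, so which genes pass depends on the scaling. The median difference of the 114 genes was 2.40 among the 4 lower-sum libraries and 2.40 between the higher-sum pair.

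Most of the 114 genes stood in BF10 near their level in the other tumors and were low in aCSF1R. Their median TPM was 30.04 in BF10, 24.0 in control IgG and 23.9 in IL-10-Fc, against 4.39 in aCSF1R. Against control IgG, the median difference of the same genes was 0.14 in BF10 and -2.09 in aCSF1R, where all tested genes had medians of 0.32 and 0.24. These comparisons share the aCSF1R, BF10 and control libraries and are given as values only.

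The largest rise was in Gatm (ENSMUSG00000027199, chr2:122594467-122611303 of GRCm38, minus strand), which encodes glycine amidinotransferase, the first enzyme of creatine synthesis. Gatm was at 167, 54.1 and 157 TPM in BF10 and 8.62, 6.23 and 1.44 TPM in aCSF1R, so the lowest BF10 tumor stood above the highest aCSF1R tumor. The difference was 4.36 (SE 0.60, limma adjusted p 0.00612). Next came Ccl12 (ENSMUSG00000035352, chr11:82101845-82103400 of GRCm38, plus strand), a chemokine ligand of CCR2, at 62.2, 127 and 73.95 TPM in BF10 and 5.79, 2.53 and 3.77 TPM in aCSF1R. Its difference was 4.13 (SE 0.36, limma adjusted p 0.000442).

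Promoters of the 5 largest rises found in the RefSeq promoter table are shown, since the genes moved together. Each is the 250 bases before the most upstream transcription start in that table (GRCm38.p6), 5′ to 3′ on the gene's strand, with GAGGAA or its reverse complement TTCCTC in capitals. GAGGAA is the core of the site bound by PU.1, the myeloid factor encoded by Spi1, which is itself among the 114 genes.
Gatm promoter, chr2:122611278-122611527, minus strand: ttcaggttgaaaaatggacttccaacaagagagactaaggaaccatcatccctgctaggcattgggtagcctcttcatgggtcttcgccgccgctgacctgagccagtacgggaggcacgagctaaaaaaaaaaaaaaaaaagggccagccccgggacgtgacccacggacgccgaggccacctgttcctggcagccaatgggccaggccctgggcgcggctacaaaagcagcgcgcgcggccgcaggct
Ccl12 promoter, chr11:82101595-82101844, plus strand: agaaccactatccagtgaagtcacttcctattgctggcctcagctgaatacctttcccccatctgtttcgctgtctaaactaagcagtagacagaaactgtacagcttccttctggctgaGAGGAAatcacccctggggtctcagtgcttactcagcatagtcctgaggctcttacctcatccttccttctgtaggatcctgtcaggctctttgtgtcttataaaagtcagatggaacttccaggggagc
C1qb promoter, chr4:136886201-136886450, minus strand: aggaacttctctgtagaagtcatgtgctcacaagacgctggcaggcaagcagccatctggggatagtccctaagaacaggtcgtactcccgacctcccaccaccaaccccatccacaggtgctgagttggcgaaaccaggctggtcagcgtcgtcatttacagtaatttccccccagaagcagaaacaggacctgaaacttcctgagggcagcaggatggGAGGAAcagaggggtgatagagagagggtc
C1qc promoter, chr4:136892915-136893164, minus strand: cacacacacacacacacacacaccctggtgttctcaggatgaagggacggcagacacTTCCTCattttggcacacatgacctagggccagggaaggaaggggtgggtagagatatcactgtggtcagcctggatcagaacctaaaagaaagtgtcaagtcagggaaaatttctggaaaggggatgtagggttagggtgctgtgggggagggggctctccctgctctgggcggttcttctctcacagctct
Slc9b2 promoter, chr3:135307450-135307699, plus strand: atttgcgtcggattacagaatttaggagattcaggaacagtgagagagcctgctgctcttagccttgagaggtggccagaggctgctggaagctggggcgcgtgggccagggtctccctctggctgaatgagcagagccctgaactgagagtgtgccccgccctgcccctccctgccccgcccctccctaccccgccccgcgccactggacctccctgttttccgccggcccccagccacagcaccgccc
The motif was found in the Ccl12, C1qb and C1qc windows and not in those of Gatm and Slc9b2. On either strand 23.1% of all 27025 promoters used held it. Of the 114 genes 82 had a promoter in the table, of which 38 held it (46.3%), beside 23% of the 10611 tested genes with a promoter. Since the rest of the 114 genes had none in the table, a check over the whole set is void and nothing is read from these shares. A match is a description of the letters and not a bound site.

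The 3 C1q chains, which make up the recognition unit of the classical complement pathway and are made in tumors mostly by macrophages, rose together by 3.66, 3.63 and 3.62 for C1qa, C1qb and C1qc. C1qa (ENSMUSG00000036887, chr4:136895917-136898803 of GRCm38, minus strand) was at 496, 589 and 572 TPM in BF10 and 76.1, 49.2 and 20.6 TPM in aCSF1R. C1qb was at 336, 298 and 369 TPM in BF10 and 51.8, 34.03 and 9.54 TPM in aCSF1R. C1qc was at 354, 634 and 425 TPM in BF10 and 50.2, 31.9 and 29.5 TPM in aCSF1R. The aCSF1R tumors were thus the low ones, while C1qa reached 636, 623 and 823 TPM with control IgG, and with IL-10-Fc 543, 545 and 459 TPM. The limma adjusted p was 0.00146, 0.00569 and 0.000442 in that order, and all 3 chains were still called without BF10 replicate 3. As a list, other complement genes did not share this rise: of 16 components and regulators 11 were higher (median 0.27). Cfp (properdin, which stabilizes the alternative pathway convertase) was the 1 called gene, at 2.59. The groups did not overlap in C3ar1, Cfp and Cd46, 2 of them higher in BF10 and 1 lower. Shares without overlap over all tested genes were 4.33% on the BF10 side and 1.58% on the aCSF1R side.

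All 12 core macrophage markers were higher in BF10, 5 were called and in 10 the groups did not overlap, with a median difference of 2.57 where all genes had 0.06. Of all tested genes 0.735% were called, 4.33% lay without overlap on the BF10 side and 58.2% had a difference above 0. The same shares are the background for the counts of every list that follows. Msr1 (ENSMUSG00000025044, chr8:39581685-39642673 of GRCm38, minus strand), the scavenger receptor SR-A, was at 111, 145 and 108 TPM in BF10 and 7.59, 7.61 and 8.75 TPM in aCSF1R, with the smallest adjusted p of all tested genes (3.75, SE 0.22, limma adjusted p 6.39e-05). Lyz2, the lysozyme of macrophages and granulocytes, went from 254, 181 and 174 TPM in aCSF1R to 2517, 1934 and 1105 TPM in BF10. Aif1, which encodes the actin-bundling protein IBA1, was at 122, 131 and 106 TPM in BF10 and 14.9, 10.8 and 7.70 TPM in aCSF1R. Each of these aCSF1R values lay below every BF10 value. Adgre1, the gene of the macrophage marker F4/80, differed by 2.60 and Mrc1, the mannose receptor CD206, by 2.50, and both passed. Cd68 (2.54) and Cd163 (0.57) did not pass, at limma adjusted p-values of 0.141 and 1. Of 14 scavenger receptors only Msr1, Mrc1 and Cxcl16 were called among 11 higher, with a median of 0.66, and the lowest was Scara5 at -0.99.

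**Figure D2:**
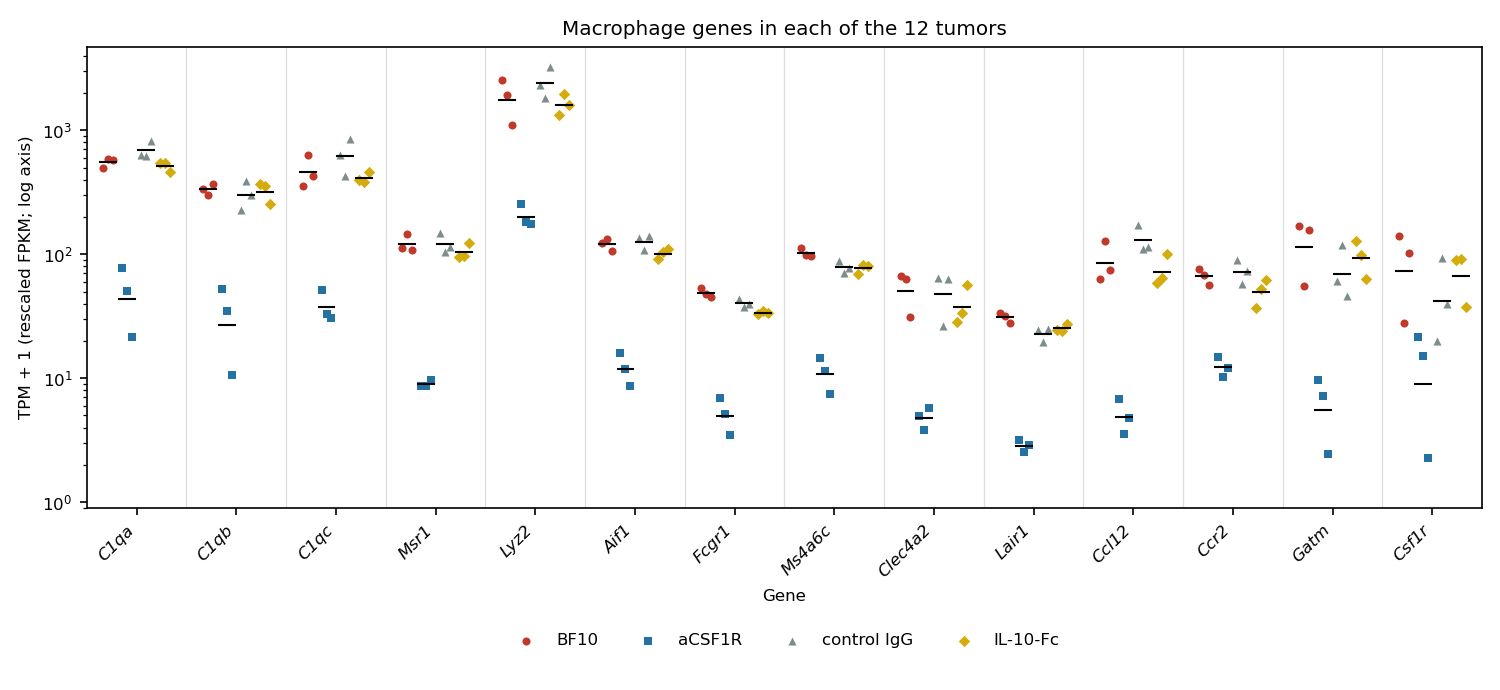
TPM + 1 (log axis) of 14 macrophage genes in each of the 12 tumors, with 1 point per tumor and bars at the mean of log2(TPM + 1). In each of the 14 genes the 3 aCSF1R tumors lie below the 3 BF10 tumors. Csf1r ran from 1.26 to 20.6 TPM in aCSF1R and from 26.7 to 139.8 TPM in BF10.

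Csf1r itself, the target of the antibody in both arms, was at 139.8, 26.7 and 101 TPM in BF10 and 20.6, 14.1 and 1.26 TPM in aCSF1R. The groups did not overlap, and the difference of 3.03 (SE 0.91) missed the threshold (limma adjusted p 0.405). When the model held the library set, it passed at an adjusted p of 0.000575. The low value in each group belonged to its higher-sum library, BF10 replicate 6 and aCSF1R replicate 8. Of 9 receptors and ligands of the CSF1 and GM-CSF families 6 were higher and 0 were called (median 0.67). Csf1 differed by 0.24 (SE 0.96) and Il34 by -0.08 (SE 0.47), with overlapping groups, and Csf3, the gene of G-CSF, was the lowest at -1.56 (SE 0.65, limma adjusted p 1).

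The IL-10 receptor chain Il10ra was at 19.8, 7.42 and 16.1 TPM in BF10 and 4.73, 3.74 and 0.510 TPM in aCSF1R, with groups that did not overlap (2.06, SE 0.55, limma adjusted p 0.247). Scaled by the median of ratios it passed. Il10rb, the shared chain, overlapped (51.7, 13.6 and 37.8 TPM in BF10, 28.9, 28.4 and 5.75 TPM in aCSF1R). The mouse Il10 gene was at 1.16, 2.01 and 3.15 TPM in BF10 and 2.31, 1.87 and 4.55 TPM in aCSF1R, and BF10, given as a protein, adds no RNA to it. Of 16 IL-10 receptor and STAT3 response genes 15 were higher, with a median of 0.20, 1 had groups that did not overlap and 0 were called. Without BF10 replicate 3, 10 of 16 were higher with a median of 0.15, where 58.2% of all tested genes were higher in the main fit. Among the lower-sum libraries the median of the list was 0.05.

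Fc gamma receptors, which bind IgG and trigger phagocytosis or inhibit it, were higher as a family: 8 of 8 members of the list with their adaptors were higher, 5 were called and the median was 2.12. Over all tested genes 58.2% were higher and 0.735% were called. Fcgr1, the high-affinity activating receptor, was at 52.6, 46.8 and 43.9 TPM in BF10 and 5.98, 4.17 and 2.45 TPM in aCSF1R (3.28, SE 0.27, limma adjusted p 0.000342). The adaptor Fcer1g, through which the activating receptors signal, was at 387, 237 and 247 TPM in BF10 and 54.5, 46.4 and 43.8 TPM in aCSF1R. Fcgr3, Fcgr4 and the inhibitory Fcgr2b also passed, at 2.34, 2.30 and 1.93. Fcgrt, the neonatal receptor that recycles IgG and is not limited to myeloid cells, was the lowest of the list at 0.53. Without BF10 replicate 3, 4 of the 8 were called.

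The MS4A family of 4-transmembrane proteins gave 11 of 11 higher members and 5 calls, with a median of 2.13. Calls made up 0.735% of all tested genes. Ms4a6c was at 111, 98.1 and 95.5 TPM in BF10 and 13.5, 10.4 and 6.49 TPM in aCSF1R (3.25, limma adjusted p 0.000269), and Ms4a7, a macrophage marker, was at 161, 68.7 and 53.5 TPM in BF10 and 14.2, 6.63 and 6.43 TPM in aCSF1R. The other calls were Ms4a4c (2.86), Ms4a6d (2.71) and Ms4a6b (2.65), and the lowest member was Ms4a4d at 0.22. Reads of such close paralogs, as of the Sirpb1, Fcgr, Bcl2a1, mast cell protease and granzyme families, can be split between copies, so single members are uncertain.

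Among C-type lectins, pattern and self-ligand receptors of myeloid cells, 12 of 13 were higher (median 1.69). Of these 4 were called, beside 0.735% of all tested genes. Clec4a2 was at 65.2, 61.9 and 30.2 TPM in BF10 and 3.92, 2.85 and 4.75 TPM in aCSF1R, and Clec5a, which signals through TYROBP, was at 48.5, 50.5 and 42.9 TPM in BF10 and 3.53, 2.49 and 6.96 TPM in aCSF1R. Both sets of 3 tumors were well apart, at differences of 3.41 and 3.27. Clec12a (2.86) and Clec4n, the gene of dectin-2 (1.87), also passed. The paired receptors of the leukocyte immunoglobulin-like, SIRP, CD300 and PILR families held 6 calls and 11 genes without overlap, beside 0.735% and 4.33% of all tested genes. They were higher in 18 of 18, with a median of 1.49. Pilra led them at 42.3, 22.6 and 25.2 TPM in BF10 and 3.50, 2.85 and 4.55 TPM in aCSF1R (2.71), followed by Cd300c2 (2.40), Sirpb1b (2.37), Sirpb1a (2.23), Sirpb1c (2.02) and the inhibitory Lilrb4a (1.51). Without BF10 replicate 3 the calls fell to 2 in the lectins and 2 in the paired receptors, and the medians to 1.22 and 1.14. Lair1, an inhibitory collagen receptor outside these lists, was at 32.7, 30.6 and 26.8 TPM in BF10 and 2.19, 1.53 and 1.91 TPM in aCSF1R (3.43, SE 0.23, limma adjusted p 0.000127).

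A list of CCR2, which recruits monocytes to inflamed tissue and tumors, its ligands and other monocyte chemokine genes was higher in 11 of 11. In it 8 genes did not overlap and 3 were called, beside 4.33% and 0.735% of all tested genes, and the median was 1.61. Ccr2 was at 74.7, 67.2 and 55.8 TPM in BF10 and 13.8, 9.23 and 11.01 TPM in aCSF1R (2.44, SE 0.27, limma adjusted p 0.00197). Among the ligands of CCR2 Ccl12 passed as above. Ccl2, the best known ligand, was at 64.5, 51.4 and 23.4 TPM in BF10 and 44.9, 19.4 and 26.9 TPM in aCSF1R with overlapping groups (0.56, SE 0.54). Ccl8, a further chemokine of the list, was at 298, 353 and 191 TPM in BF10 and 124, 86.2 and 68.5 TPM in aCSF1R without passing (limma adjusted p 0.723). Of 10 classical monocyte genes 9 were higher and Ccr2 and Ms4a4c were called (median 0.78), and of 9 nonclassical monocyte genes 8 were higher and 0 were called (median 0.67), with Cx3cr1, the fractalkine receptor, at 13.2, 3.62 and 19.7 TPM in BF10 and 0.520, 0.574 and 0.0543 TPM in aCSF1R (3.02, limma adjusted p 0.277). The medians of these lists were 0.31 and 0.20 without BF10 replicate 3, and Ms4a4c was no longer called.

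Lists of macrophage function held few calls. All 6 subunits of the phagocyte NADPH oxidase, the source of the respiratory burst, were higher, 5 without overlap and 6 at an unadjusted p below 0.05, with a median of 2.46 and 0 calls. Over all tested genes the shares were 4.33% without overlap on the BF10 side, 4.26% at that limma p and 0.735% called. Of 15 Toll-like receptors and partners 13 were higher (median 0.91), with Tlr13, a sensor of bacterial ribosomal RNA, called at 1.84 and Unc93b1, the chaperone of the endosomal receptors, highest at 2.63 (limma adjusted p 0.0586). Among 25 lysosomal genes 23 were higher (median 0.81) and the cysteine proteases Ctsc (3.08) and Ctss (2.56) were called. Ctss, which also trims the invariant chain, was the 1 call among 11 MHC class II presentation genes (10 higher, median 0.59). Of 14 IL-1 family and inflammasome genes 9 were higher (median 0.37) and Pycard, the adaptor ASC, was called at 2.44.

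Trem2, a lipid receptor of macrophages, and its adaptor Tyrobp were the 2 calls among 16 lipid-associated macrophage genes (13 higher, median 0.50), and neither was called without BF10 replicate 3. Trem2 was at 59.6, 25.7 and 33.02 TPM in BF10 and 9.12, 5.05 and 2.11 TPM in aCSF1R, whereas Spp1, the gene of osteopontin and the lowest of the list, was at 1606, 6709 and 4222 TPM in BF10 and 4119, 4419 and 13949 TPM in aCSF1R with overlapping groups (-0.83, SE 0.56). Among 14 myeloid transcription factors 11 were higher (median 0.77), and Spi1 (2.62) and Tfec, a MiT family factor of macrophages (1.75), were called. Neither was called without BF10 replicate 3, and the median was then 0.22. In arginine and creatine metabolism 10 of 11 genes were higher (median 0.35). Beside Gatm the call was Ckb, the brain-type creatine kinase (3.25), while Arg1, arginase 1, was at 443, 149 and 168 TPM in BF10 and 76.9, 60.2 and 22.7 TPM in aCSF1R (2.21, limma adjusted p 0.208). Mmp12, the macrophage elastase, was at 172, 213 and 111 TPM in BF10 and 9.69, 14.9 and 24.3 TPM in aCSF1R and was the 1 call among 13 matrix metalloproteinases and inhibitors (11 higher, median 0.33).

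**Figure D3:**
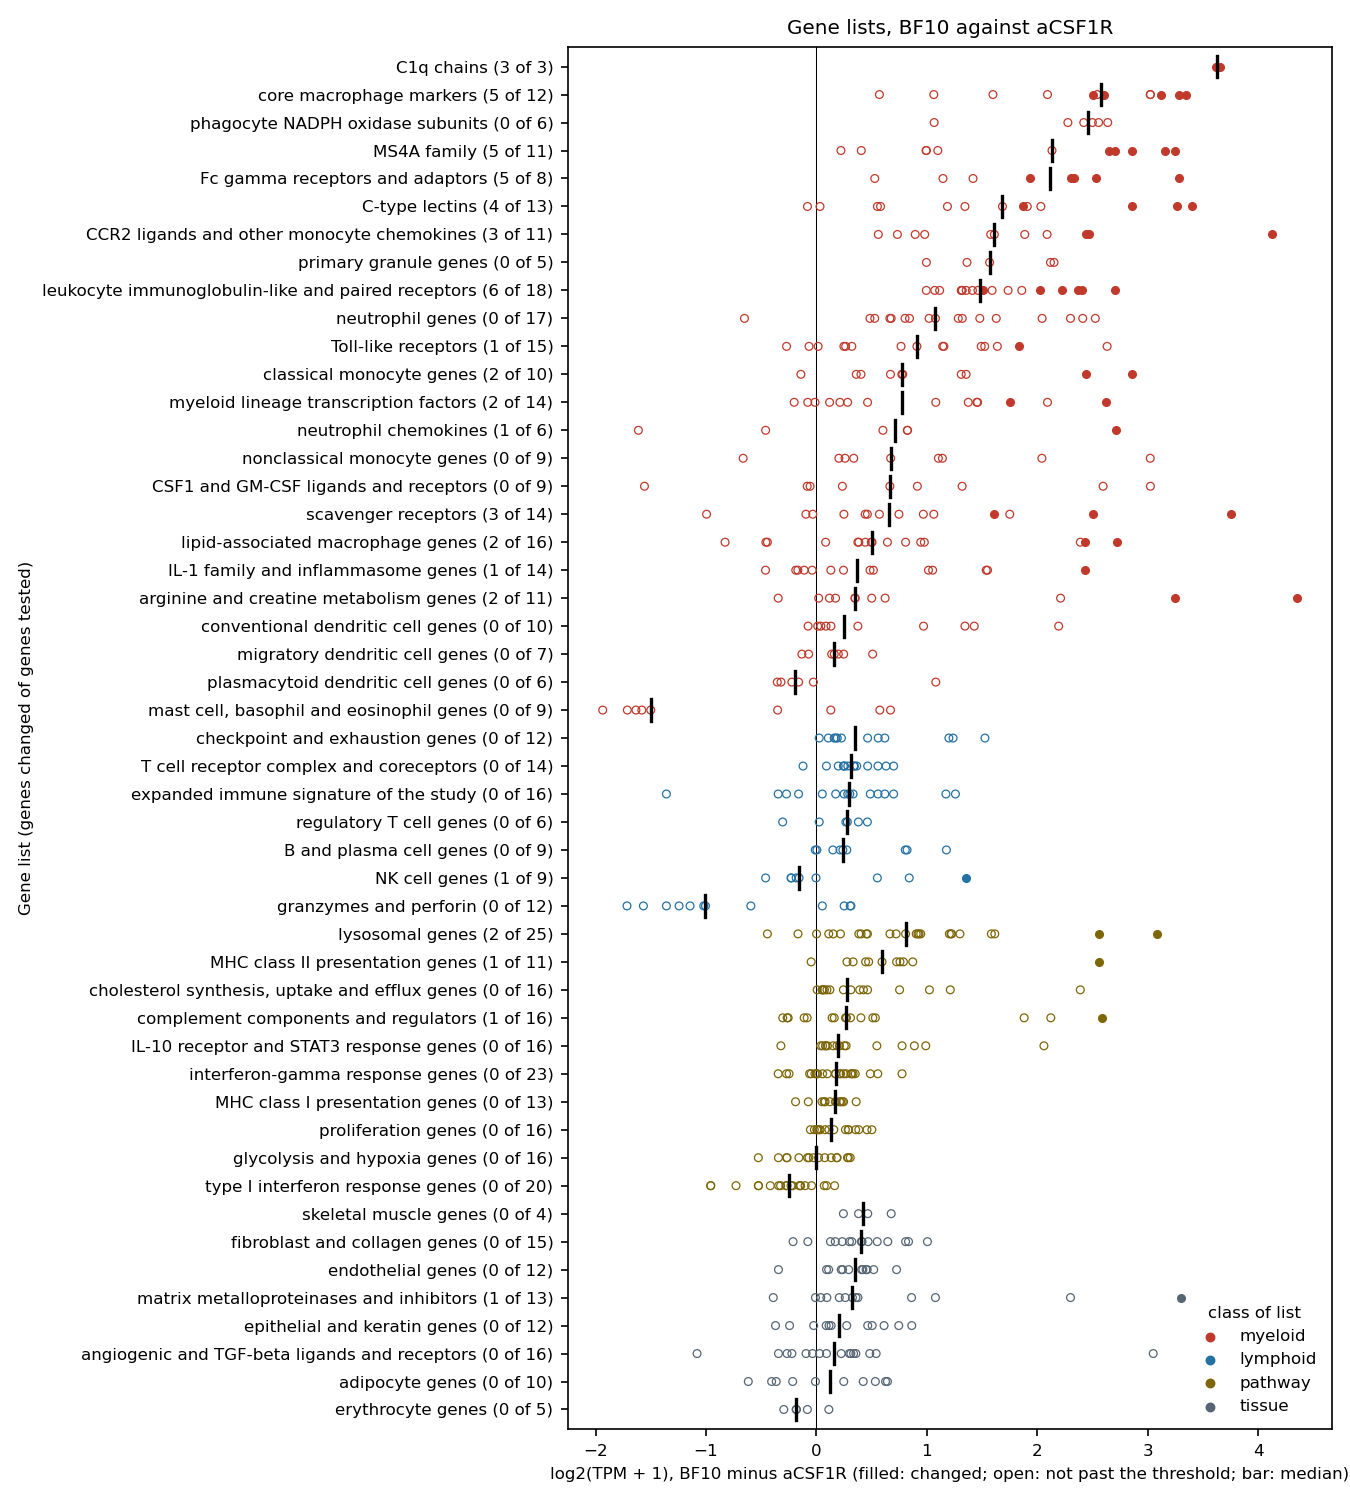
Difference between BF10 and aCSF1R on log2(TPM + 1) (x axis) for every tested gene of 49 lists (rows, in 4 classes), filled where the gene was called, with a bar at the median and the number called of those tested. The C1q chains (median 3.63) and core macrophage markers (2.57) lie at the top, the mast cell list at -1.5, and granzymes and perforin at -1.01, while the other lymphoid lists lie between -0.16 and 0.35.

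Over the 49 lists, 46 of the 114 genes lay in a list and 68 in none, and 20 lists held a call. By class, 41 of 240 tested genes of myeloid lists were called (median 0.99), 1 of 70 of lymphoid lists (median 0.25), 3 of 167 of pathway lists (median 0.17) and 1 of 85 of tissue lists (median 0.29). The share of all tested genes called was 0.735%. The calls of Adgre1, Cxcl16, Fcgr4, Ms4a7, Tlr13, Ckb, Pf4 and Klrk1 were also lost without BF10 replicate 3. The median then fell to 0.33 for scavenger receptors, 0.25 for lipid-associated macrophage genes, 0.15 for arginine and creatine metabolism and 0.46 for lysosomal genes, and turned to -0.18 for complement components and regulators and -0.12 for matrix metalloproteinases and inhibitors.

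T cell genes showed no call, where 0.735% of all tested genes were called. The 14 genes of the T cell receptor complex and coreceptors had a median of 0.31, 13 of them higher, and all 14 overlapped between groups. Of all tested genes 4.33% lay without overlap on the BF10 side and 1.58% on the aCSF1R side. Full overlap and 0 calls in a short list are thus near the shares of all tested genes. The 12 checkpoint genes were all higher (median 0.35, 0 called), with Vsir, the myeloid-expressed checkpoint VISTA, highest at 1.53. The 6 regulatory T cell genes had a median of 0.27 and the 9 B and plasma cell genes 0.24, with 0 called in either. Of 9 NK cell genes 3 were higher (median -0.16) and Klrk1, the activating receptor NKG2D, was called at 8.10, 9.02 and 11.8 TPM in BF10 and 2.80, 3.20 and 3.40 TPM in aCSF1R (1.35, limma adjusted p 0.0445). The 16 genes of the expanded immune signature that the study uses had 12 higher, 0 called and a median of 0.29. Without BF10 replicate 3, 6 of 14 T cell receptor genes, 8 of 12 checkpoint genes and 9 of 16 signature genes were higher. The medians of these 3 lists were then -0.04, 0.19 and 0.09. For regulatory T cell genes the median was 0.09 and for B and plasma cell genes 0.01.

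Dendritic cell lists gave 0 calls, with a median of 0.25 over 10 conventional, 0.16 over 7 migratory and -0.19 over 6 plasmacytoid genes. Over all tested genes the share called was 0.735%, and 4.33% lay without overlap on the BF10 side. In the conventional list 3 genes did not overlap and Itgax, the integrin CD11c that macrophages also carry, was highest at 16.8, 5.27 and 17.8 TPM in BF10 and 2.91, 3.18 and 0.336 TPM in aCSF1R (2.19, limma adjusted p 0.236).

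In the response and tissue lists described next no gene was called, and several had medians of opposite sign in the lower-sum libraries and the higher-sum pair. The median was 0.18 over 23 interferon-gamma response genes, -0.25 over 20 type I interferon response genes (17 lower) and 0.17 over 13 MHC class I genes. It was 0.28 over 16 cholesterol genes, -0.0031 over 16 glycolysis and hypoxia genes and 0.14 over 16 proliferation genes. None of these 6 lists held a call. Among tissue lists with 0 calls the median was 0.20 for 12 epithelial and keratin genes, 0.41 for 15 fibroblast and collagen genes, 0.35 for 12 endothelial genes, 0.12 for 10 adipocyte genes, 0.42 for 4 skeletal muscle genes, -0.18 for 5 erythrocyte genes and 0.16 for 16 angiogenic and TGF-beta genes. Among the 4 lower-sum libraries and between the higher-sum pair the medians were -1.59 and 2.58 for adipocyte, -0.96 and 1.49 for erythrocyte, -0.62 and 0.61 for type I interferon and -0.11 and 1.08 for cholesterol genes, and 0.12 and 1.06 for fibroblast genes. Without BF10 replicate 3 the median turned to -0.17 for fibroblast and collagen genes (4 of 15 higher), -0.08 for endothelial genes (3 of 12 higher), -0.15 for angiogenic and TGF-beta genes and 0.23 for erythrocyte genes. In the angiogenic and TGF-beta list Tgfbi, a matrix protein that macrophages secrete, stood apart at 267, 66.6 and 210.1 TPM in BF10 and 37.4, 24.5 and 5.86 TPM in aCSF1R (3.05, limma adjusted p 0.12), and Angpt1, a ligand of the vessel receptor TIE2, was lowest at -1.08.

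A set of genes known from osteoclasts and multinucleated macrophages was conspicuous among the 114. These genes were put together after their values were seen, so their count is a description. Osteoclasts arise from CSF1R-dependent precursors under RANK signalling and fuse through DC-STAMP and OC-STAMP. Of 17 tested genes all were higher and 8 were called (Acp5, Ocstamp, Dcstamp, Atp6v0d2, Oscar, Ckb, Slc9b2 and Slc37a2), with a median of 2.45. The shares over all tested genes were 58.2% higher and 0.735% called. Acp5, tartrate-resistant acid phosphatase, was at 617, 217 and 212 TPM in BF10 and 50.1, 54.2 and 13.7 TPM in aCSF1R (3.15, SE 0.58, limma adjusted p 0.0367). Ocstamp (ENSMUSG00000027670, chr2:165393760-165400405 of GRCm38, minus strand) was at 12.3, 6.48 and 5.64 TPM in BF10 and 0.260, 0.0984 and 0.0217 TPM in aCSF1R (2.95), and Atp6v0d2, a subunit of the proton pump used in bone resorption, was at 28.02, 9.15 and 9.18 TPM in BF10 and 0.585, 0.508 and 0.477 TPM in aCSF1R (3.24). Dcstamp (2.61), the activating receptor Oscar (2.45), the sodium/proton exchanger Slc9b2 (3.44) and the sugar phosphate transporter Slc37a2 (2.80) were each at or under 3 TPM in all aCSF1R tumors. Ctsk, cathepsin K, was at 763, 243 and 193 TPM in BF10 and 69.5, 40.02 and 31.2 TPM in aCSF1R and missed the threshold (limma adjusted p 0.128).

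In this set BF10 replicate 3 had the highest value of the 3 BF10 tumors in 16 of 17 genes, the exception being Siglec15. Without it 1 of the 8 calls remained, Ocstamp, and the median was 1.93. The IL-10-Fc tumors were also high, with Acp5 at 305, 306 and 317 TPM against 133, 147 and 53.9 TPM in control IgG, and Oscar at 4.87, 4.18 and 4.83 TPM against 1.51, 1.83 and 0.288 TPM. Tnfrsf11a, the gene of RANK, did not overlap (1.51, limma adjusted p 0.323), while its ligand Tnfsf11 (0.33), the osteoclast factor Nfatc1 (0.89), the integrin Itgb3 (0.24), Siglec15 (0.31) and the pump subunit Tcirg1 (0.24) overlapped. Mmp9, the gelatinase of osteoclasts and neutrophils, was at 704, 161 and 201 TPM in BF10 and 210.3, 87.98 and 9.20 TPM in aCSF1R, also with overlap, and Car2, carbonic anhydrase 2, was at 0.93 without passing. Calcr was not tested, being too low.

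**Figure D4:**
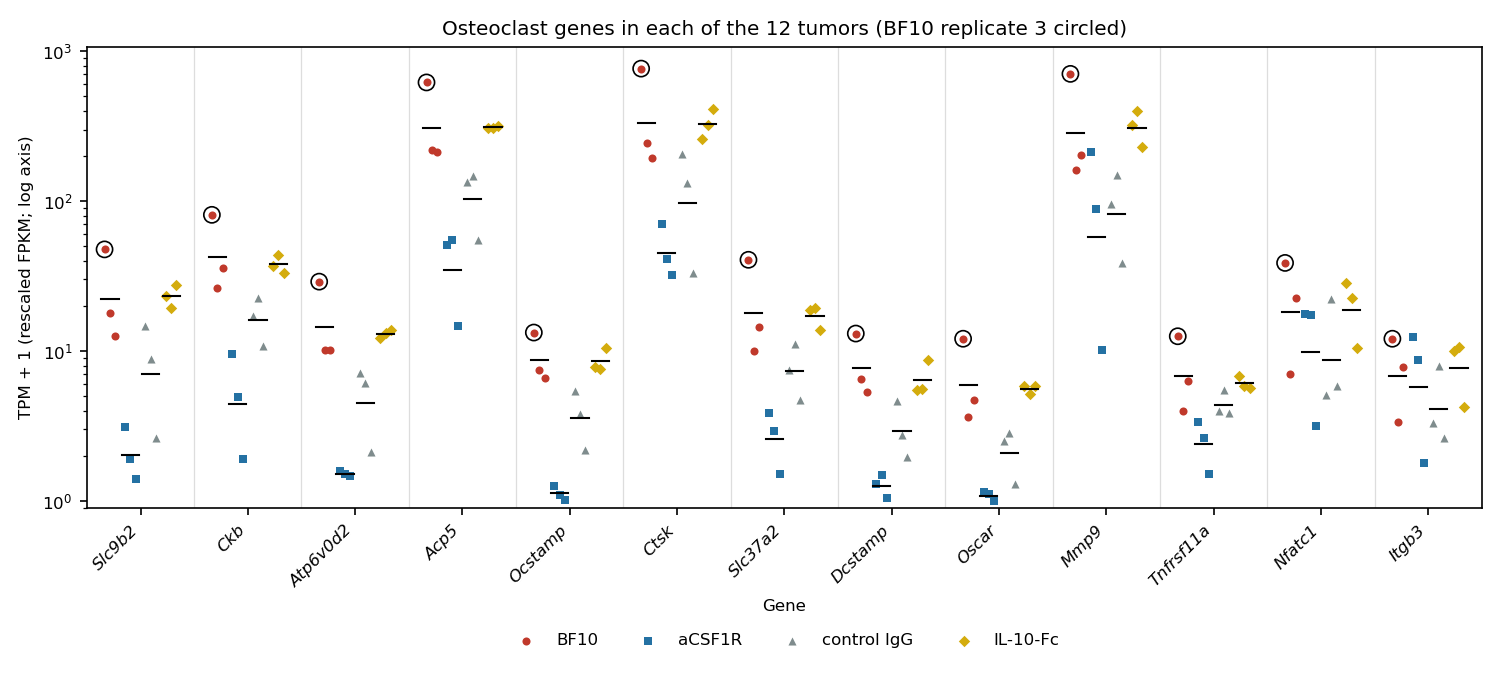
TPM + 1 (log axis) of 13 osteoclast genes in each of the 12 tumors, with 1 point per tumor, bars at the mean of log2(TPM + 1) and BF10 replicate 3 circled. From Slc9b2 to Oscar the 3 aCSF1R tumors lie lowest of the 2 groups and BF10 replicate 3 highest, while Mmp9, Nfatc1 and Itgb3 overlap.

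BF10 replicate 3 also stood apart in granulocyte genes. Over the 17 neutrophil genes tested the summed TPM ran from 1379 to 22010 in BF10, the upper value being replicate 3, and from 1071 to 4390 in aCSF1R. Ngp, neutrophilic granule protein, was at 1573, 25.2 and 25.2 TPM in BF10 and 25.3, 7.00 and 25.9 TPM in aCSF1R, and Elane, neutrophil elastase, at 92.5, 3.82 and 2.64 TPM and 1.64, 0.426 and 3.95 TPM. S100a8 was at 6522, 681 and 241 TPM in BF10 and 349.8, 143 and 1362 TPM in aCSF1R. The direction of the list rested on that tumor. With it 16 of 17 neutrophil genes were higher with a median of 1.08, and without it 8 of 17 were higher with a median of -0.01. Over the 5 primary granule genes the median was 1.57 with it and 0.24 without it. The part of this tumor's granulocyte content in the other results was not tested. Of 6 tested genes in the list named neutrophil chemokines 4 were higher (median 0.71). Pf4 was the called one at 2.71 and is not read here as a sign of granulocytes. Its call was lost when scaled by the median of ratios and without BF10 replicate 3 or aCSF1R replicate 6. Cxcl1, a ligand of CXCR2, was lowest at 17.1, 30.005 and 86.1 TPM in BF10 and 66.01, 86.5 and 237 TPM in aCSF1R (-1.61, limma adjusted p 0.937).

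On the side of aCSF1R no gene passed, and the 5 lower genes with the smallest unadjusted p among those without overlap, leaving out predicted genes and small RNAs, were Mcpt1, Col4a5, Ogt, Septin2 and Prl2c2. Mcpt1 (ENSMUSG00000022227, chr14:56017971-56020384 of GRCm38, plus strand), a chymase of mast cells, was at 0.985, 1.80 and 2.00 TPM in BF10 and 3.04, 49.98 and 27.8 TPM in aCSF1R, with a difference of -2.82 (SE 0.78, limma adjusted p 0.288). Col4a5 (ENSMUSG00000031274, chrX:141475385-141689234 of GRCm38, plus strand), a basement membrane collagen chain, was at 1.91, 3.26 and 4.49 TPM in BF10 and 6.65, 11.97 and 10.2 TPM in aCSF1R (-1.34, SE 0.38, limma adjusted p 0.319). Ogt, which adds O-GlcNAc to proteins, was at 71.2, 98.4 and 83.9 TPM in BF10 and 110.4, 137 and 140.1 TPM in aCSF1R (-0.61), and Septin2, a cytoskeletal GTPase, was at 12.5, 12.1 and 15.4 TPM and 21.9, 24.2 and 20.2 TPM (-0.70). Prl2c2, a proliferin gene with close paralogs, was at 1.75, 2.05 and 1.29 TPM and 4.47, 4.74 and 3.81 TPM (-0.99).

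Other mast cell genes shared the direction of Mcpt1. Mast cell granules hold chymases, tryptases and carboxypeptidase A3. Of the 9 tested genes of mast cells, basophils and eosinophils 6 were lower, 3 of them without overlap, 0 were called and the median was -1.5. On the aCSF1R side 1.58% of all tested genes lay without overlap. In a wider set of 10 genes, put together after the values were seen, 9 were lower, 7 had an unadjusted p below 0.05 and 0 passed. An unadjusted limma p below 0.05 was found in 4.26% of all tested genes, 87 of them lower in BF10. Mcpt4, a chymase of connective tissue mast cells, was at 3.88, 3.64 and 9.07 TPM in BF10 and 9.77, 17.04 and 64.6 TPM in aCSF1R (-1.94, SE 0.68, limma adjusted p 0.65). Cma1, a further chymase, was at 4.07, 2.51 and 9.07 TPM in BF10 and 8.42, 15.6 and 33.1 TPM in aCSF1R, overlapping by 1 tumor of each group. The tryptases Tpsb2 (7.45, 5.55 and 16.4 TPM in BF10, 15.9, 28.9 and 49.99 TPM in aCSF1R) and Tpsab1 (8.71, 7.60 and 25.96 TPM, 16.3, 43.9 and 132 TPM) and Cpa3 (3.72, 3.33 and 6.04 TPM, 6.08, 11.1 and 57.9 TPM) had the same order, with the lowest aCSF1R value in replicate 4 and the highest in replicate 8. In control IgG these genes were also low, with Mcpt4 at 3.68, 1.06 and 5.59 TPM and Cpa3 at 5.17, 0.873 and 7.26 TPM. Fcer1a, the IgE receptor alpha chain of mast cells and basophils, was at 0.532, 0.627 and 1.23 TPM in BF10 and 1.37, 2.39 and 14.6 TPM in aCSF1R, without overlap (-1.5, limma adjusted p 0.86). The receptors Kit and Il1rl1 overlapped between the groups. Kit was at 4.76, 0.699 and 3.32 TPM in BF10 and 8.67, 4.49 and 0.651 TPM in aCSF1R, and Il1rl1, the IL-33 receptor, at 6.65, 0.904 and 3.82 TPM and 4.91, 3.62 and 3.41 TPM. Mcpt8, a basophil protease, was higher in BF10 at 0.67. Among the 4 lower-sum libraries the median of the 10 genes was -0.80, and between the higher-sum pair it was -3.32, so the size depends on the pair of libraries compared.

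**Figure D5:**
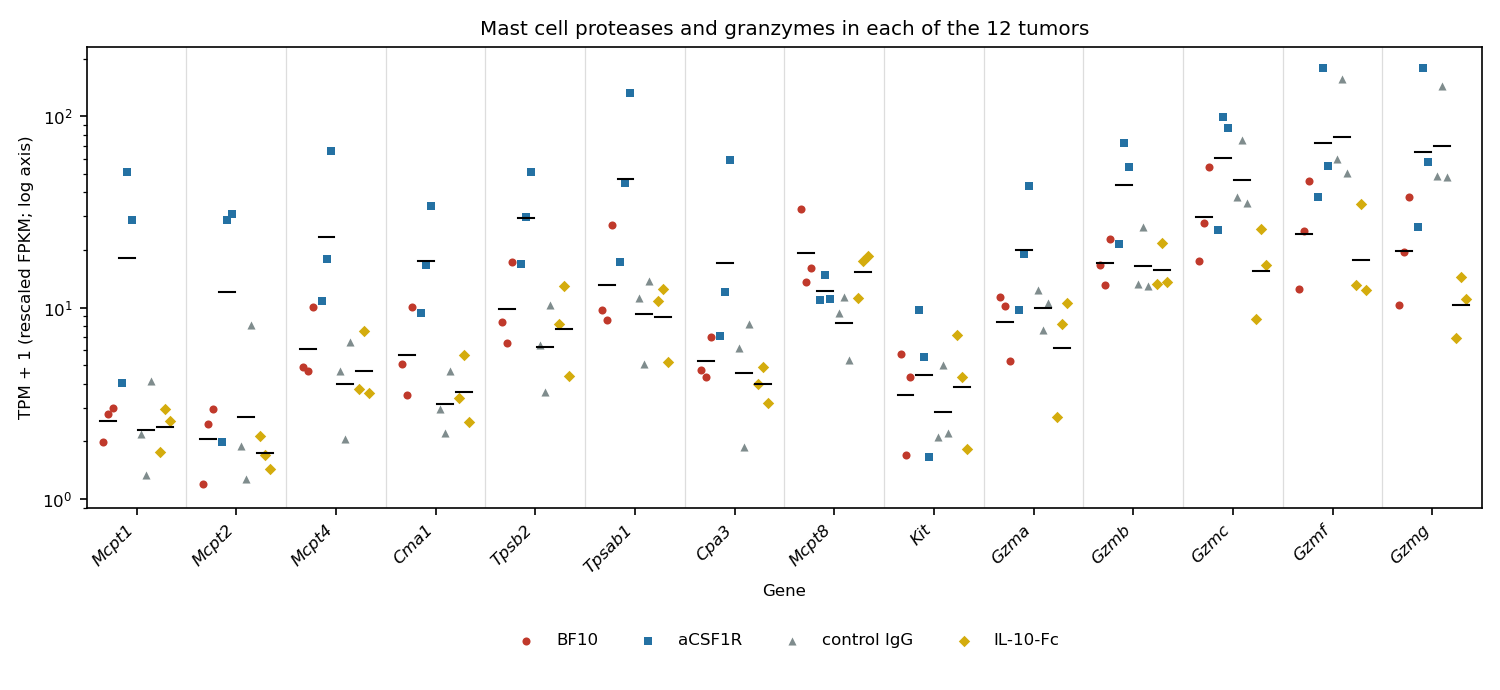
TPM + 1 (log axis) of 9 mast cell genes and 5 granzymes in each of the 12 tumors, with 1 point per tumor and bars at the mean of log2(TPM + 1). The aCSF1R tumors reach higher than the other groups in Mcpt1 to Cpa3, and Kit and the granzymes overlap.

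Granzymes and perforin, the cytotoxic granule proteins of T and NK cells, were lower in 8 of 12 genes, with a median of -1.01, 12 of 12 overlapping and 0 called. Of all tested genes 0.735% were called, and 4.33% and 1.58% were without overlap on the BF10 and aCSF1R sides. Gzmb was at 15.6, 12.1 and 21.9 TPM in BF10 and 20.5, 71.2 and 53.2 TPM in aCSF1R (-1.36, SE 0.47, limma adjusted p 0.643), and Gzmg, the lowest, was at 9.31, 18.6 and 36.8 TPM and 25.4, 177 and 56.6 TPM (-1.72, limma adjusted p 1). High values of Gzmg were found in aCSF1R replicate 6 and in control IgG replicate 5 (47.8, 143 and 47.4 TPM in the control group) and not in the IL-10-Fc group (5.97, 13.4 and 10.1 TPM). Ifng, the interferon-gamma gene, was the highest of the list at 0.31 (SE 0.26).

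A difference of differences, BF10 minus aCSF1R set against IL-10-Fc minus control IgG, was taken in the same limma fit. It was called in 45 genes (0.29%), 44 positive and 1 negative, and the 44 were all among the 114. This contrast contains the BF10 minus aCSF1R difference that chose the 114. The overlap is thus largely built in and is no separate support. Over the 114 genes the median of aCSF1R minus control IgG was -2.09 and that of BF10 minus IL-10-Fc was 0.24. The median of the contrast over all tested genes was -0.28. Control IgG replicates 4 and 7 and IL-10-Fc replicate 7 were higher-sum, so its IL-10-Fc minus control IgG part was not matched in library set. With the set as a term 188 genes were called. With a library left out the count ran from 10 to 52, the lowest without control IgG replicate 4, and was 16 without BF10 replicate 3. Among the C1q chains it was 4.08 for C1qa and 4.20 for C1qc (limma adjusted p 0.012 and 0.00416), and Fcgr1 gave 3.54 (limma adjusted p 0.00416). In Fcgr1 and C1qa every IL-10-Fc tumor lay below every control IgG tumor, and this gap adds to the positive value. Fcgr1 was at 31.6, 33.9 and 32.3 TPM under IL-10-Fc and 42.5, 36.4 and 38.7 TPM under control IgG. Of the 17 osteoclast genes 0 were called, with a median of 1.04, and IL-10-Fc minus control IgG for Acp5 was 1.59 beside the 3.15 of BF10 minus aCSF1R.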

How the data were processed

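RNA of 12 bulk 4T1 tumors was sequenced as stranded polyadenylated libraries and aligned to the mouse genome mm10 (GRCm38), per the study's methods. The submitters' processing notes name STAR 2.7.5a, RSEM 1.3.3 and DESeq2 1.28.0. The authors deposited FPKM values (fragments scaled by transcript length and mapped depth) for 55401 genes, 34194 of them above 0 in a library. Counts were not used here, so no count model was run. The 4 tables of the authors' own DESeq2 comparisons (means, fold changes, p-values), none of BF10 with aCSF1R, were not used. All columns matched a sample (0 unmatched).

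Each library was rescaled to a sum of 1000000 (TPM), and the 15504 genes that reached a TPM of 1 in 3 or more of the 12 libraries were tested on log2(TPM + 1), which understates the change of low genes. Group means over the 12 libraries were compared in limma 3.58.1 under R 4.3.3 (lmFit, eBayes with trend, 8 residual degrees of freedom, two-sided, Benjamini-Hochberg adjustment), after a test on simulated data. Changed means an adjusted p below 0.05 and at least 1.5-fold. Labels do not say whether tumors came from separate mice or batches, so p-values measure the spread between these tumors.

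Named genes are the 25 largest rises without overlap, the 5 lower genes without overlap of smallest unadjusted p (predicted genes and small RNAs left out), called genes of 49 gene lists and, where past 1 on the log2 scale or of use to the account, the extremes of a list. Further genes were added after values were seen, and a few chosen genes are not reported here. The members and lists were chosen with earlier results of these data known. Gene positions come from the GENCODE M21 annotation of GRCm38 and promoters from RefSeq. Alternatives changed the pseudocount, scaling, filter, libraries, library set, trend, weights and fold limit, and left out each library in turn.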

Additional observations from a re-analysis of the deposited data

Results flagged for a closer look

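In 14 of the 30 genes named from the whole table, the difference between BF10 and aCSF1R was not the same as that between IL-10-Fc and control IgG, by the test of the difference of differences in the limma fit. All 14 were positive. The largest was Ccl12 at 4.97 (limma adjusted p 0.00416), where IL-10-Fc minus control IgG was -0.85. The C1q chains C1qc and C1qa gave 4.20 and 4.08, the scavenger receptor Msr1 3.96 and the SLAM family receptor Slamf9 3.87. Clec4a2 gave 3.74, Lyz2 3.69, Aif1 3.68, Ly86 3.66, Bcl2a1b 3.55, Fcgr1 3.54, Lair1 3.29, Ms4a6c 3.28 and Clec5a 3.26. Their limma adjusted p-values ran from 0.00129 for Msr1 to 0.0382 for Clec4a2. Aif1, Ccl12, Fcgr1, Lair1, Ms4a6c and Msr1 kept the call in all 21 alternative fits. The other flagged genes lost it in some, from 1 of 21 for C1qc to 15 of 21 for Clec4a2. These genes were chosen for their difference between BF10 and aCSF1R, which is part of this test, so the flags are not independent of that choice. No explanation was tested.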

How the results depend on the processing

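The count of 114 stayed within 1.5 times under another pseudocount, filter, scaling, trend or fold limit (79 to 160). It was 0 in the fit to the 6 libraries alone and 222 when that fit took the library set as a term, an alternative chosen after seeing the data. It was 437 when the fit to 12 libraries held the set (429 higher, 8 lower) and 465 with limma's sample quality weights (385 higher, 80 lower), whose weights ran from 0.0736 for aCSF1R replicate 8 to 61.7 for IL-10-Fc replicate 4 and whose estimation stopped before convergence. With 1 library left out it ran from 54 (without BF10 replicate 3) to 108. The 45 genes of the difference of differences became 27 with no filter, 188 with the set as a term and 9161 with the quality weights (980 higher, 8181 lower), and ran from 10 (without control IgG replicate 4) to 52 with 1 library left out. Of 75 named called genes 0 reversed, 75 lost the call in the fit to 6 libraries and 24 kept it in every other fit. Reversals were limited to genes that were not called. With the quality weights Csf1 was at -0.11, Il10 at 0.16, Itgb3 at -0.40, Ccl2 at -0.14 and Ms4a4d at -0.31. With 1 library left out Csf1 ran from -0.69 to 0.97, Il34 from -0.56 to 0.21, Tnfsf11 from -0.24 to 0.65, Itgb3 from -0.60 to 0.80, Tcirg1 from -0.077 to 0.43, Kit from -1.06 to 0.21, Il1rl1 from -0.70 to 0.30, Cd163 from -0.17 to 1.21, Ms4a4d from -0.14 to 0.48 and S100a8 from -0.013 to 2.36. The cause of these changes was not tested.

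No paired analysis was possible because BF10 and aCSF1R share only replicate number 6, and no source says that a number marks the same cage, day or batch. FPKM values keep no read counts, so no counting error can be given for genes with low values.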

Other observations

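Of the 114 genes higher in BF10, 68 lay in none of the 49 lists, and those named here were picked out after their values were seen. Several act in eicosanoid synthesis and sensing. Tbxas1, thromboxane synthase, was at 18.97, 16.4 and 15.7 TPM in BF10 and 2.45, 2.05 and 0.662 TPM in aCSF1R (2.79, limma adjusted p 0.00282). Alox5ap, which presents arachidonic acid to 5-lipoxygenase, was at 289, 97.9 and 97.8 TPM in BF10 and 29.1, 16.9 and 27.5 TPM in aCSF1R (2.51, limma adjusted p 0.0145). Hpgds, the haematopoietic prostaglandin D synthase, differed by 2.12 and Cysltr1, a receptor for cysteinyl leukotrienes, by 2.22. Receptors for purines and lipids formed a further group: P2ry12, an ADP receptor best known from microglia and platelets, was at 6.93, 7.77 and 6.69 TPM in BF10 and 1.17, 0.804 and 0.911 TPM in aCSF1R (2.05, limma adjusted p 0.00398). P2ry13 differed by 1.78, the lysophosphatidylserine receptor Gpr34 by 2.21 and the oxysterol receptor Gpr183 by 1.65. In each of these 8 genes the BF10 and aCSF1R tumors did not overlap, as held for all 114.

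The anti-apoptotic Bcl2a1 genes, close paralogs between which reads can be split, differed by 2.95 for Bcl2a1b, 2.62 for Bcl2a1a and 2.22 for Bcl2a1d. Leukocyte cytoskeleton and adhesion genes also passed. Coro1a, which encodes an actin-binding protein of leukocytes, was at 251, 126 and 140.1 TPM in BF10 and 33.3, 31.4 and 20.9 TPM in aCSF1R (2.51), Nckap1l, a WAVE complex subunit of blood cells, differed by 2.46 and Fermt3, the integrin activator kindlin-3, by 2.64. The adaptors Dok2 and Dok3, which restrain receptor signalling, differed by 1.97 and 2.69.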
